A study of Mus musculus with 6 samples.

Results

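The embryonic and theta globin genes of the mouse were measured in purified red cells of heterozygous Nxf1+/C587R males and their Nxf1+/+ (wild-type) littermates, whose age was not given in the sources used here. The genes were chosen by name, with earlier results of these data known. They were Hbb-y, Hbb-bh1 and Hbb-bh2 from the beta cluster and Hba-x, Hbq1a and Hbq1b from the alpha cluster, 6 of the 27179 genes listed. Red cells were taken by cardiac puncture from 6 mice on the BalB/c background, pelleted through Ficoll and checked by flow cytometry, and their polyadenylated RNA was counted gene by gene. The 6 libraries, 1 per male, comprised 3 of Nxf1+/C587R and 3 of wild type, and every one of the 3 batches contained a single library of either genotype. Nxf1 is the receptor that carries most messenger RNA out of the nucleus, and the mutants hold the C587R change on 1 allele. The comparison of mutants with littermates asks how the allele changes the RNA content of circulating red cells.

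Globin genes are used in a developmental order. Primitive red cells from the yolk sac use zeta globin (Hba-x) and the embryonic beta-like chains epsilon-y (Hbb-y) and beta-h1 (Hbb-bh1), and definitive red cells then switch to the adult alpha and beta chains. The switch is held in place by erythroid repressors such as Bcl11a. Theta globin genes lie in the alpha cluster behind the adult genes and are known to be transcribed in erythroid cells, but no hemoglobin with a theta chain is known to carry oxygen in the mouse. Hbb-bh2 lies between the embryonic and adult genes of the beta cluster and its role is less clear.

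Total counts ran from 14636739 to 15246552 in the mutants and from 14711457 to 15790336 in wild type. The adult globins Hba-a1, Hba-a2, Hbb-bs and Hbb-b1 together took 89.1% ± 0.197 of counts in the mutants, against 88.6% ± 0.409 in wild type (SD, n = 3 each). All 8 mature erythroid markers, which include Hba-a1 and Hbb-bs, had counts, and the list summed to 447455 to 454511 counts per 1000000 counts of a library (CPM) in the mutants, against 439074 to 445894 in wild type. By gene, Hba-a1 took 212656 ± 1754 CPM in the mutants, against 218338 ± 1555 in wild type, and Hba-a2 282598 ± 902, against 291038 ± 5028. Hbb-bs took 207711 ± 2934 CPM in the mutants, against 191882 ± 4688 in wild type, and Hbb-b1 187921 ± 2749, against 184412 ± 5366 (SD, n = 3 each). The adult denominators thus differed in direction between the clusters. BalB/c mice are known to carry another adult beta globin haplotype than the C57BL/6J reference, so ratios to adult beta globin use the sum of Hbb-bs and Hbb-b1. Hbb-bt and Hbb-b2 were not analysed here. Wild-type library 1 stood apart in holding 195 counts of the 6 exocrine pancreas markers, where no other library had more than 2, and all 90 of the wild-type counts of the hepatocyte marker Ttr. In these bulk samples, fewer cells of a type and less RNA per cell cannot be told apart.

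The promoters of the theta genes can be read beside those of the globins around them. The sequences below are from RefSeq on GRCm38.p6, run from 250 bases before to 50 bases after the annotated start, and are given 5′ to 3′ on the strand of the gene. The table held 5 of the 6 genes. The first pair is shown because the theta promoters are near copies of each other: 14 of 300 bases differed, and capitals mark those bases. Hbq1b is at chr11:32286714-32287013 and Hbq1a at chr11:32299819-32300118, both on the plus strand.
Hbq1b: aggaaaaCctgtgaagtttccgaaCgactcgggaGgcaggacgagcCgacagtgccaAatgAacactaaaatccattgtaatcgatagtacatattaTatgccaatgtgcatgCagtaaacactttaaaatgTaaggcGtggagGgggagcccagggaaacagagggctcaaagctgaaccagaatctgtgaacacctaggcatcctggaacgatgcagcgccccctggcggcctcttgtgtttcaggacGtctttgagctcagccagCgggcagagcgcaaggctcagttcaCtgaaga
Hbq1a: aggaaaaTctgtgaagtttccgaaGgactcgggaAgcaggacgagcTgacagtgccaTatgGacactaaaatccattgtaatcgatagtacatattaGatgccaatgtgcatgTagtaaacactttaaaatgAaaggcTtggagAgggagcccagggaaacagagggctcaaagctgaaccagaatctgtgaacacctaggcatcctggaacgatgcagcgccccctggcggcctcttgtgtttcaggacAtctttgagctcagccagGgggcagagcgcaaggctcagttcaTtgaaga

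The second set gives 2 embryonic genes and an adult one for comparison. Capitals mark ATAA, the core of a TATA-type box, between 45 and 20 bases before the start, and CCAAT and CACCC anywhere in the window. Hba-x is at chr11:32276350-32276649 on the plus strand, Hbb-y at chr7:103853158-103853457 on the minus strand and Hba-a1 at chr11:32283422-32283721 on the plus strand.
Hba-x: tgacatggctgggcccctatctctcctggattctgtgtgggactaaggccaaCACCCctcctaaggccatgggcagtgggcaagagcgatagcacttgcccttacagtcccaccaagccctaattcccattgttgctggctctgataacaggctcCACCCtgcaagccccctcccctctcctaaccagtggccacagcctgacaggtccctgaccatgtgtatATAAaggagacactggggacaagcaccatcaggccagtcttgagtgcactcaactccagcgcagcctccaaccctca
Hbb-y: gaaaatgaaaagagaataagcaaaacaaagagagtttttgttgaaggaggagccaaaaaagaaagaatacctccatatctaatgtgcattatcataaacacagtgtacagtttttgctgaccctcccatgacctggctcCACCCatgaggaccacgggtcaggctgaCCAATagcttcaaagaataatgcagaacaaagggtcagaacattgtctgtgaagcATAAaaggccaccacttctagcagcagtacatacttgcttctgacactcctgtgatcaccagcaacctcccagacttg
Hba-a1: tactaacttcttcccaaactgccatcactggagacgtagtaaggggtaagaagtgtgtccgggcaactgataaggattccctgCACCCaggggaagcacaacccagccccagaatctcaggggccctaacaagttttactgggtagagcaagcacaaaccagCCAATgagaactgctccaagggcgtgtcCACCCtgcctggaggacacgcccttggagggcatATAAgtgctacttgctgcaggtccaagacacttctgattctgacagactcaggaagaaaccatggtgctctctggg

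ATAA stood 27 bases before the start in Hba-x, 28 in Hbb-y and 26 in Hba-a1, and neither theta promoter held it in that window on either strand. Of all 32851 promoters of this length, 13.5% held ATAA there on one strand or the other. CACCC, which occurred on either strand in 57.5% of all promoters, was in Hba-x, Hbb-y and Hba-a1 but in neither theta promoter. CCAAT, found in 37.4%, stood 83 bases before the start in Hbb-y, 88 in Hba-a1 and 149 in both theta genes. No 2 of the 3 motifs overlapped in these windows. The Hbb-bh2 window, chr7:103840472-103840771 on the minus strand, held neither CCAAT nor CACCC. It held no ATAA in the stretch searched before the start, though ATAA occurred elsewhere in it. The start used for this window lies inside the gene, whose 5′ end is given below as 103840734. These absences therefore do not describe the bases before that 5′ end. These matches describe letters and not sites in use.

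The order of the genes along the chromosomes puts each theta gene behind an adult one. On chromosome 11, Hbq1b (Entrez 544763, 32286964 to 32287912) begins 2477 bases after the end of Hba-a1, and Hbq1a (Entrez 216635, 32300069 to 32300873) begins 2758 bases after the end of Hba-a2. Hba-x (Entrez 15126, 32276600 to 32278116) comes before both adult alpha genes, and all are on the plus strand. On chromosome 7 the genes read on the minus strand, from Hbb-y (Entrez 15135, 103851754 to 103853207) through Hbb-bh1 (Entrez 15132, 103841638 to 103843162) and Hbb-bh2 (Entrez 436003, 103838801 to 103840734) towards the adult genes. These positions are on GRCm38. No other GENCODE gene overlapped any of the 6.

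**Figure D1:**
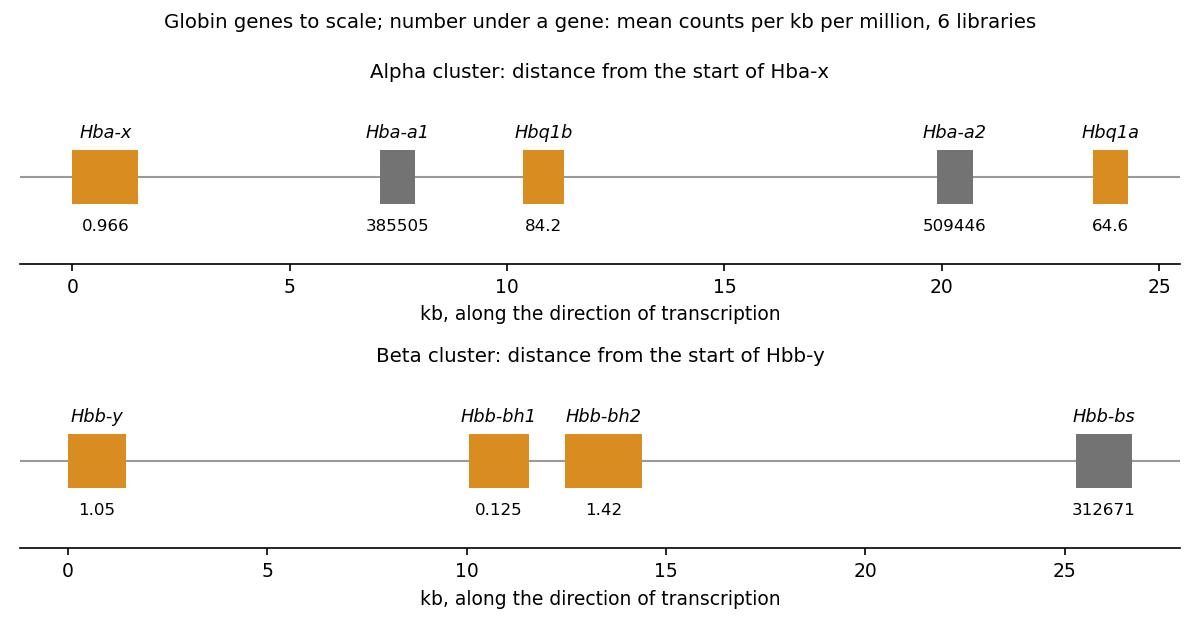
Positions of the embryonic and theta globin genes (orange) and adult globin genes (grey), to scale, as distance in kb along the direction of transcription. The number under each gene is its mean CPM per kb of gene length over the 6 libraries, which was 84.2 for Hbq1b and 64.6 for Hbq1a, against 385505 for Hba-a1.

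Almost all of the counts of the 6 genes came from the theta pair. Over the 6 libraries the genes had 9493 counts, of which Hbq1b and Hbq1a took 9302 and the 4 embryonic genes 191, or 2.01%. All 6 genes together made up 88.8 ± 1.50 CPM in the mutants, against 119 ± 6.78 CPM in wild type (SD, n = 3 each). What was left of the non-adult globins in these cells was mainly theta RNA, with 27 to 42 embryonic counts per library.

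Hbq1b was the highest of the 6. It had 725, 794 and 815 counts in the mutants, against 1039, 1104 and 1266 in wild type. Set against its length of 748 bases, its level was 69.3 ± 5.29 CPM per kb in the mutants, against 99.1 ± 8.84 in wild type (SD, n = 3 each). Every mutant library lay below every wild-type library. On this scale Hbq1b ranked 67, 67 and 69 among all genes in the mutants, against 65, 60 and 59 in wild type.

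Hbq1a was next. It had 566, 535 and 475 counts in the mutants, against 685, 592 and 706 in wild type. Its level over 604 bases was 57.9 ± 4.02 CPM per kb in the mutants, against 71.3 ± 4.05 in wild type (SD, n = 3 each). The groups again did not overlap, so 2 of the 6 genes had every mutant share below every wild-type share, as had 31.5% of the 2823 genes tested. Its rank per length ran from 69 to 87 in the mutants and from 70 to 73 in wild type.

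The pair are near-identical copies, and the counts of either gene depend on how reads shared by both were assigned. Their GENCODE transcripts were 93.8% identical over 567 aligned columns, and 39.8% of the 50-base windows of Hbq1b and 36.8% of those of Hbq1a occurred exactly in the other gene. Against the adult alpha genes the theta transcripts were 71.3% to 73.0% identical, with no run of more than 11 matching bases in the alignments. The sum of the pair does not depend on how reads were divided between them, though it does on whether shared reads were counted. With the deposited lengths of 748 and 604 bases, Hbq1b was above Hbq1a per length in all 6 libraries, by 1.03 to 1.51 times. The GENCODE transcript of Hbq1b was shorter, at 562 bases, so the size of this ratio depends on the length used.

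The embryonic genes had few counts in both genotypes. A count of 0 allows up to 3 counts, a floor of 0.197 to 0.205 CPM in the mutants, against 0.190 to 0.204 in wild type. Only Hbb-bh1 stayed below this floor in every library. Summed over the 4 genes there were 31, 34 and 27 counts in the mutants, against 30, 42 and 27 in wild type, or 2.04 ± 0.193 CPM in the mutants, against 2.17 ± 0.606 in wild type (SD, n = 3 each). The lowest library, in wild type, had 1.71 CPM with a 95% Wilson interval of 1.18 to 2.49, and the highest, also in wild type, had 2.85 with 2.11 to 3.86. These intervals overlap, and the mutants fell inside the range of wild type.

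Among the beta-like genes, Hbb-bh2 had 11, 14 and 14 counts in the mutants, against 7, 17 and 9 in wild type. Hbb-y, the epsilon-y chain of primitive red cells, had 10, 9 and 10 in the mutants, against 12, 11 and 7 in wild type. Both genes overlapped between genotypes. Hbb-bh1, a main beta-like gene of the early yolk sac, had 1, 1 and 0 counts in the mutants, against 1, 2 and 2 in wild type. No library passed the 3-count floor for Hbb-bh1. Hba-x, the zeta chain, had 9, 10 and 3 counts in the mutants, against 10, 12 and 9 in wild type, and the third mutant library stood below the others.

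The scatter of the embryonic genes was near what counting alone gives. The variance over the mean of the 6 raw counts was 0.302 for Hbb-y, 0.486 for Hbb-bh1, 1.13 for Hbb-bh2 and 1.06 for Hba-x, where pure counting error gives about 1. It was 46.9 for Hbq1b and 13.2 for Hbq1a, which include the difference between genotypes. Unlike the theta pair, the 4 embryonic transcripts shared none of their windows of 50 or 100 bases with any other GENCODE gene. Hbb-y, Hbb-bh1 and Hbb-bh2 were 73.0% to 75.2% identical to Hbb-bs, with identical runs of at most 22 bases. Hbb-b1 was not among the transcripts aligned, and BalB/c sequences were not compared. Whether some of the few embryonic counts came from misassigned adult globin reads was not tested.

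Per length, the order of levels over all 6 libraries was Hbq1b, Hbq1a, Hbb-bh2, Hbb-y, Hba-x and Hbb-bh1. Hbq1a exceeded Hbb-bh2 by 31.4 to 90.6 times within a library. Hbb-bh2 was above Hbb-y in 5 of 6 libraries and Hbb-y above Hba-x in 3 of 6, so the middle 3 genes did not differ beyond their spread. Their means were 1.42 ± 0.470, 1.05 ± 0.195 and 0.966 ± 0.338 CPM per kb (SD, n = 6). Hba-x was above Hbb-bh1 in all 6.

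**Figure D2:**
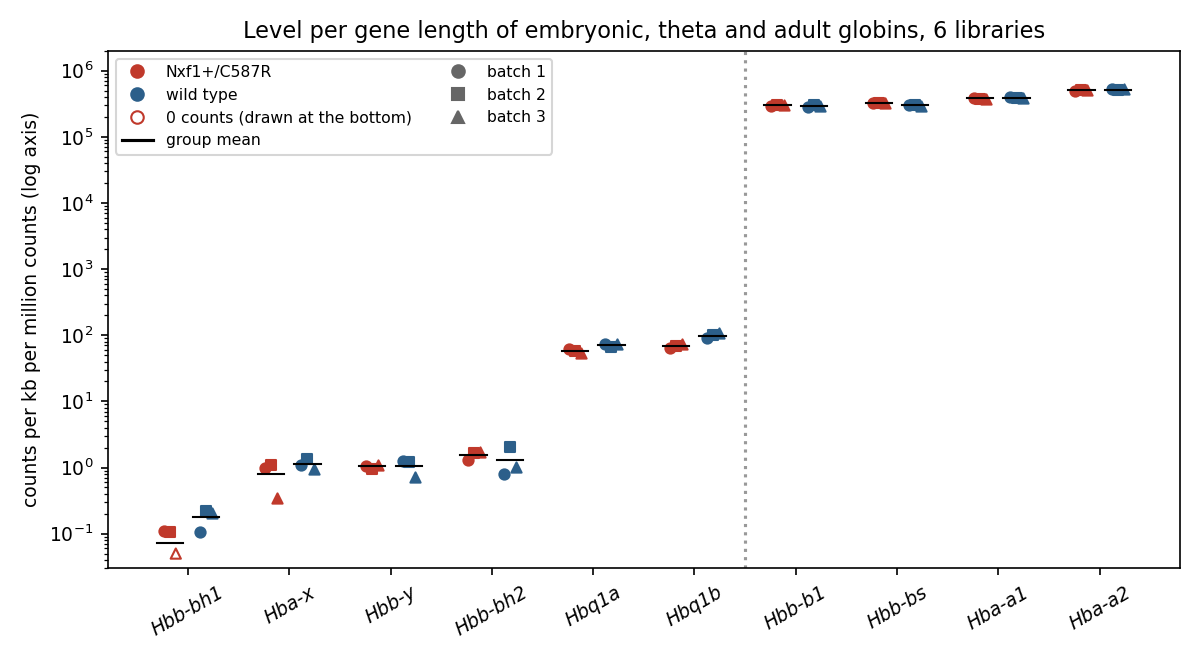
CPM per kb of gene length (log axis) of the embryonic and theta genes, left of the dotted line, and of the adult globins, right of it. Each point is 1 library, red for Nxf1+/C587R and blue for wild type, with the shape giving the batch and the bar the group mean. The theta genes stand between 53.7 and 107, the adult globins at or above 287097 and the embryonic genes at or below 2.07.

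Relative to the adult globins, all 6 genes were minor. The 2 adult alpha genes exceeded the 2 theta genes per length by 6939 ± 86.0 times in the mutants, against 5339 ± 305 times in wild type (SD, n = 3 each). The adult alpha transcripts were 99.8% identical to each other over 538 aligned columns, with an identical run of 415 bases. All ratios to adult alpha counts therefore also depend on whether reads shared by that pair were counted. Zeta and theta counts came to 173, 178 and 179 per 1000000 adult alpha counts in the mutants, against 217, 231 and 246 in wild type. These groups did not overlap, and the difference, −55.1, was larger than the SD in the mutants (3.14) and in wild type (14.1). By a two-sided exact permutation test p was 0.1, which is as low as 3 libraries against 3 can reach. Within the 3 batches the mutant differed by −44.7, −53.6 and −67.0.

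On the beta side the genotypes overlapped. Hbb-y, Hbb-bh1 and Hbb-bh2 together had 3.67, 3.96 and 4.16 counts per 1000000 adult beta counts in the mutants, against 3.46, 5.28 and 3.08 in wild type. The mutant mean of 3.93 ± 0.248 and the wild-type mean of 3.94 ± 1.18 (SD) differed by less than the spread between replicates (exact permutation p = 1, n = 3 each). The mutant was lower in 1 of 3 batches. At these counts no difference in residual embryonic beta-like expression was detected.

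Within the alpha side, both theta genes were lower in every mutant library than in every wild-type one, as were 29.2% of the 2823 genes tested when set against the same adult alpha counts. Hbq1b had 96.3, 105 and 113 counts per 1000000 adult alpha counts in the mutants, against 130, 149 and 157 in wild type. Hbq1a had 75.2, 70.9 and 65.6 in the mutants, against 85.9, 80.1 and 87.5 in wild type. Hba-x, the zeta gene, had 1.195, 1.33 and 0.414 in the mutants, against 1.25, 1.62 and 1.12 in wild type, and these values overlapped.

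**Figure D3:**
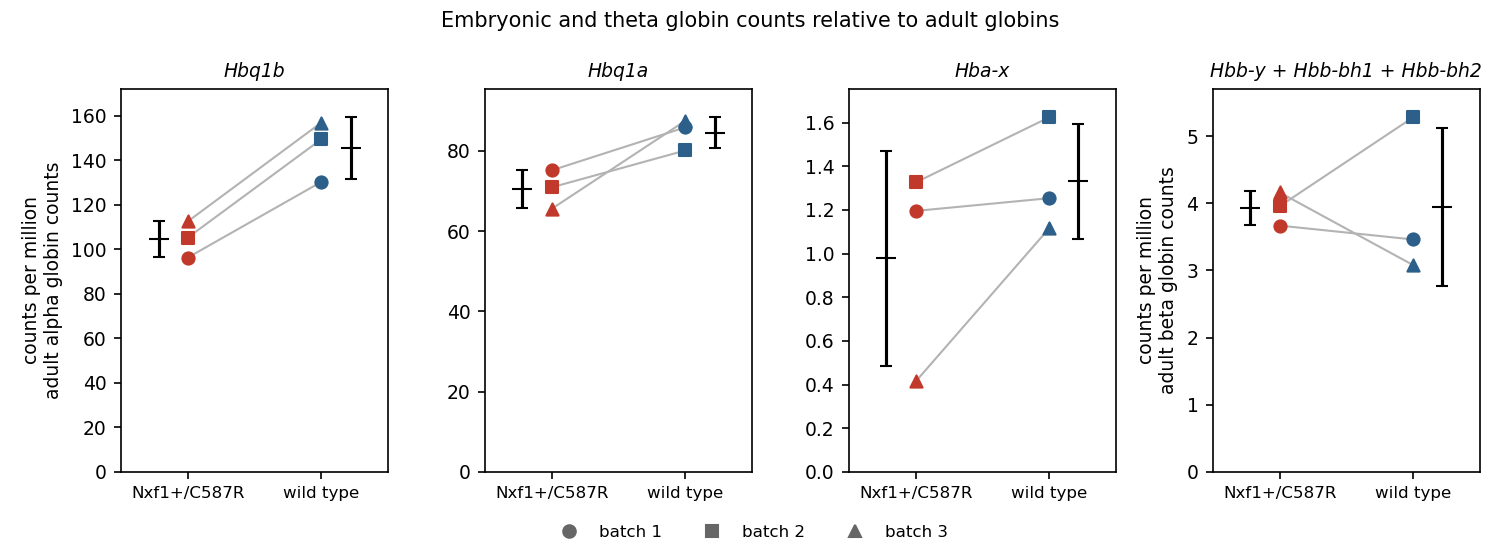
Counts of Hbq1b, Hbq1a and Hba-x per 1000000 adult alpha globin counts and of the 3 embryonic beta-like genes per 1000000 adult beta globin counts, by genotype. Points are single libraries, lines join the libraries of a batch, and the bars at the sides give the mean ± SD (n = 3). Both theta genes and Hba-x lie lower in the mutant of every batch. The genotypes overlap for Hba-x and for the beta-like sum.

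As shares of all counts the theta genes also did not overlap. Hbq1b took 51.8 ± 3.95 CPM in the mutants, against 74.1 ± 6.61 in wild type, and Hbq1a 34.9 ± 2.43 in the mutants, against 43.1 ± 2.45 in wild type (SD, n = 3 each). Each gave an exact permutation p of 0.1 (two-sided, n = 3 each), the smallest possible. Over the 10 shares and ratios tested, the smallest adjusted p was 0.25 (exact permutation, Benjamini-Hochberg), so no single share or ratio passed. The ratio of Hbq1b to Hbq1a was 1.28, 1.48 and 1.72 in the mutants, against 1.52, 1.86 and 1.79 in wild type, with overlap (exact permutation p = 0.2, n = 3 each).

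Across all genes, 4 of the 6 had enough counts to be tested, and Hba-x and Hbb-bh1 did not pass the filter on low counts. With TMM scaling, which sets the bulk of the genes equal between libraries, 0 of these 4 were called (edgeR, adjusted p under 0.05), 0 had an unadjusted p under that value, and DESeq2 and limma-voom each called 0. The background of calls was 7.05% of all genes tested. Hbq1b had 66.4, 66.8 and 52.6 TMM-scaled CPM in the mutants, against 54.6, 67.4 and 65.2 in wild type. Its log2 fold change was −0.01 (SE 0.16, edgeR adjusted p = 0.979). Hbq1a had 51.8, 44.98 and 30.7 TMM-scaled CPM in the mutants, against 35.98, 36.1 and 36.4 in wild type, a log2 fold change of 0.23 (SE 0.19, edgeR adjusted p = 0.586). The third mutant library was the lowest of the 6 for both theta genes on this scale. Its TMM factor was 1.06, against 0.720 and 0.780 in mutant libraries 1 and 2 and 1.11 to 1.23 in wild type. As a share of all counts, that library was the highest of the mutants for Hbq1b (55.7 CPM) and the lowest for Hbq1a (32.5 CPM). Hbb-bh2 had a log2 fold change of 0.74 (SE 0.42, edgeR adjusted p = 0.378) and Hbb-y one of 0.47 (SE 0.41, edgeR adjusted p = 0.636).

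With total counts and no scaling factors, Hbq1b passed. Its log2 fold change was −0.51 (SE 0.14, edgeR adjusted p = 0.0285), in a comparison that called 8.68% of all genes lower. With the batch as a term as well the edgeR adjusted p was 0.000682, with 12.8% of all genes called lower. With adult globin counts as the library size it was −0.52 (SE 0.15, edgeR adjusted p = 0.0282), with 9.92% of all genes lower. The median of all genes was −0.53 and −0.54 on these scales and −0.06 with TMM, so Hbq1b lay close to the median gene and stood at percentile 51.7 of the fold changes with total counts. The call with total counts ended without mutant library 1 (adjusted p = 0.104), mutant library 2 (0.138), wild-type library 2 (0.0860) or wild-type library 3 (0.149), and with no filter on low counts (0.115). Hbq1a had −0.30 with total counts (SE 0.15, edgeR adjusted p = 0.176), Hbb-y −0.02 (SE 0.43, 0.973) and Hbb-bh2 0.26 (SE 0.44, 0.660). The direction of Hbq1a and Hbb-y, neither of them called, changed with the scaling. The adult gene Hbb-bs was called higher in the mutants with TMM (log2 0.63, edgeR adjusted p = 0.0492), as were 5.99% of all genes tested. It was also called higher with total counts (log2 0.11, edgeR adjusted p = 0.0299). Hba-a1 was called on neither scale (edgeR adjusted p = 0.158 and 0.353).

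**Figure D4:**
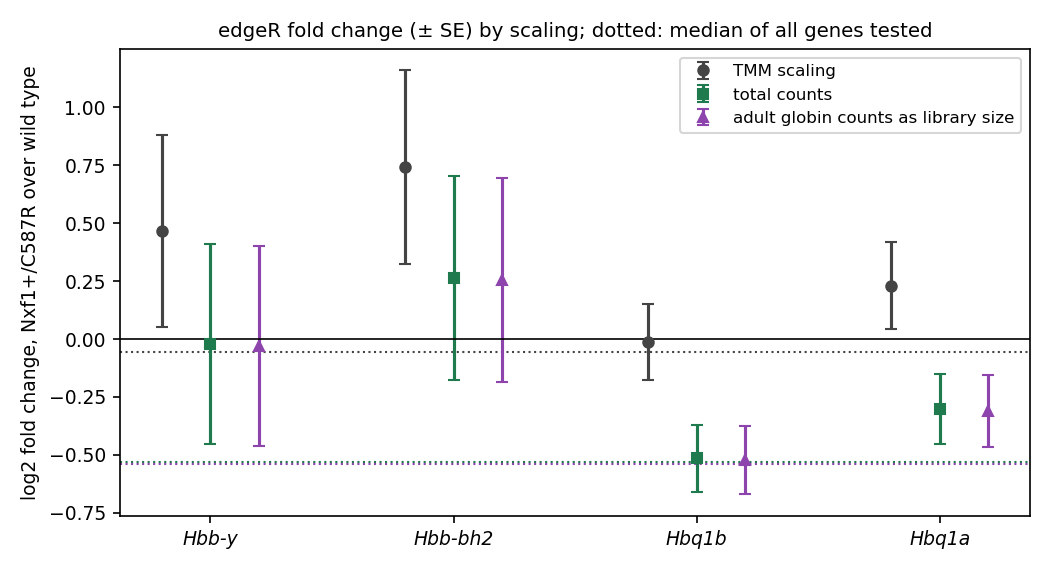
edgeR log2 fold change of Nxf1+/C587R over wild type (± SE) for the 4 genes tested, with TMM scaling, with total counts and with adult globin counts as library size. Dotted lines give the median of all 2823 genes under each scaling, and Hbq1b lies near it under all 3.

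Of the marker lists of other cell types, the hepatocyte list separated the genotypes. Its 7 markers summed to 61.9 to 131 CPM in the mutants, against 0 to 5.81 in wild type, 6 of the 7 being higher (edgeR with TMM). Their sum was at most 0.0131% of a library. The 8 leukocyte markers came to 62.0 to 109 CPM in the mutants, against 101 to 119 in wild type. The 6 platelet markers came to 3.28 to 9.82 in the mutants, against 8.45 to 15.9 in wild type. The 6 early erythroid markers, which include Hbb-bh1, came to 4.39 to 18.1 in the mutants, against 9.81 to 46.1 in wild type. Most of these counts were of Tfrc, with 100, 60 and 246 in the mutants, against 145, 577 and 706 in wild type. The ranges of these 3 lists overlapped between genotypes, and each marker had a count in some library. The 6 exocrine pancreas markers were at 0.0656 to 0.0683 CPM in the mutants, against 0 to 12.6 in wild type, where the highest value was that of library 1 alone. Without wild-type library 1, the mutant share differed by −25.8 CPM for Hbq1b and −7.53 CPM for Hbq1a, beside −22.2 and −8.10 with it. Genes with at least 10 counts numbered 2103 to 2772 in the mutants, against 2741 to 4096 in wild type. The part of these transcripts in the theta result was not tested. As a share of counts outside the globins, which takes the adult globins out of the sum, Hbq1b was at 475 ± 31.0 per 1000000 in the mutants, against 648 ± 44.1 in wild type. On that scale Hbq1a was at 321 ± 26.6 in the mutants, against 377 ± 16.4 in wild type (SD, n = 3 each).

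Regulators of globin switching and erythroid transcription were few in counts. Of 34 genes listed, 32 had a count and 18 could be tested. With TMM, edgeR called 1, which was higher, and left 17 uncalled, where 5.99% of all genes tested were called higher, with a median log2 fold change of −0.08 beside −0.06 for all genes. The higher one was Chd4, the ATPase of the NuRD corepressor that takes part in silencing embryonic globins. It had 239, 232 and 237 counts in the mutants, against 207, 161 and 196 in wild type, a log2 fold change of 0.88 (SE 0.19, edgeR adjusted p = 0.00428), and the groups did not overlap. Its call was lost with total counts (0.36, SE 0.19, edgeR adjusted p = 0.189), with adult globin counts as the library size (adjusted p = 0.201) and without batch 2 (adjusted p = 0.0856).

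With total counts edgeR called 2 of the 18 regulators, both lower, where 8.68% of all genes tested were called lower, with a median of −0.56 beside −0.53 for all genes. Tal1, an erythroid transcription factor, had 15, 12 and 16 counts in the mutants, against 24, 31 and 41 in wild type (log2 −1.12, edgeR adjusted p = 0.0499). Atf4, the stress factor downstream of the heme-regulated kinase, had 10, 9 and 12 counts in the mutants, against 34, 17 and 29 in wild type (log2 −1.32, edgeR adjusted p = 0.0352). With TMM neither passed (−0.63 and −0.83, adjusted p = 0.303 and 0.186). With total counts the call of Tal1 ended when mutant library 1 or 2, or wild-type library 2 or 3, was left out (0.103 to 0.213). The call of Atf4 ended when mutant library 1 or 2, or wild-type library 1 or 3, was left out (0.0986 to 0.130). Both calls also ended with no filter on low counts (edgeR adjusted p = 0.114 for Tal1 and 0.0651 for Atf4).

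Besides Chd4, the regulators with most counts were Lmo2, a partner of Tal1, with 2311 counts over the 6 libraries, and Fbxo7, a ubiquitin ligase subunit of maturing red cells, with 1766. Their log2 fold changes with TMM were 0.06 and 0.09 (edgeR adjusted p = 0.915 and 0.862). Bcl11a, Lin28b and Igf2bp3 were named after their values were seen. Bcl11a had 3, 2 and 3 counts in the mutants, against 3, 5 and 9 in wild type, too few to test. Lin28b and Igf2bp3, genes of the fetal red cell program, were at 0 in all 6 libraries. Among globins outside the 2 clusters, Cygb (cytoglobin) and Ngb (neuroglobin) had 1 count each, Adgb (androglobin) 8 and Mb (myoglobin) 0.

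The genes most like Hbq1b over the 6 libraries, by Pearson's r of log2 TMM-scaled CPM among 1455 genes tested outside the globins with a mean of at least 20 counts, were Vangl1 (0.98), Sipa1 (0.98), F930017D23Rik (0.96), Adipor1 (0.95) and Hipk2 (0.94). These are the highest of 1455 values over 6 points that share library and scaling, and are given as a description. Adipor1, an adiponectin receptor, was the most abundant of them, with 4531, 5148 and 5637 counts in the mutants, against 6877, 7405 and 8043 in wild type. Its log2 fold change with TMM was −0.019 (edgeR adjusted p = 0.967). Hbq1a had r = 0.66 with Hbq1b, above 91.4% of those genes. The pair share sequence, so this value also depends on how shared reads were assigned, and their part in it was not tested.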

How the data were processed

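The values deposited by the authors were raw read counts for each gene, unnormalized, in a separate table for every library, judged from whole numbers and differing totals. The submitters' processing notes name CASAVA 1.8.2, Subread, featureCounts and the mm10 build. Which annotation and strand setting were used, and how multi-mapped reads were handled, is not given in the sources used here. Counts from reads shared by the theta pair, or by the adult alpha pair, are therefore uncertain gene by gene. Of 27179 genes, 25293 were given a symbol. Genotypes were compared across genes with edgeR 4.0.16, run in R 4.3.3 (quasi-likelihood F test, robust, TMM, filterByExpr by group, genotype only, Benjamini-Hochberg over 2823 genes). SEs are the fold change over the square root of F. Alternatives used DESeq2 1.42.0 and limma-voom 3.58.1. edgeR was also run on simulated counts that share a single dispersion, which does not test the choice of scaling. Shares and ratios per library had exact two-sided permutation tests. Wilson intervals (95%) and the floor of 3 counts cover counting error only. Levels per kb used the deposited gene length. The GENCODE transcripts aligned were 562 bases for Hbq1b and 801 for Hba-x, where the deposited lengths were 748 and 601. For Hbq1a both were 604. Levels, ranks and ratios per length depend on which length is used.

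The batch label pairs the libraries, since 1 mutant and 1 littermate carry each batch number. Same-batch deviations from group means correlated at −0.116, −0.0855 and −0.0439. Named genes were the 6 globins and the adult globins, regulators that passed or had most counts, other globins and the 5 genes most like Hbq1b. Members and lists were chosen with earlier results of these data known.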

Additional observations from a re-analysis of the deposited data

How the results depend on the processing

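The TMM comparison called 199 genes, 169 higher and 30 lower. With total counts 115 were higher and 245 lower, and with adult globin counts as library size 116 and 280. Between 152 and 278 were called when 1 library was left out, 360 with total counts, 396 with adult globin counts as library size, 464 with no filter and 115 with a mean count of at least 50. Added after seeing the data, total counts gave 606 with no filter, 482 with the replicate block, and 192 to 1152 when 1 library was left out (394 without wild-type library 1 and 1152 without mutant library 3). With TMM the replicate block changed no call of the 4 globins tested (log2 −0.01, 0.20, 0.50 and 0.78 for Hbq1b, Hbq1a, Hbb-y and Hbb-bh2). With total counts and the block Hbq1b had −0.51 (edgeR adjusted p = 0.000682), with 12.8% of genes called lower.

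Hbq1b, at −0.01, turned to 0.049 with RLE scaling, 0.036 with globins removed before TMM, 0.022 with no filter, 0.049 with DESeq2, and 0.028 and 0.21 without batch 2 or 3, and ran from −0.10 to 0.17 when 1 library was left out. Hbq1a, at 0.23, turned to −0.30 with total counts (−0.30 also with no filter or with the block, and −0.35 to −0.25 when 1 library was left out, with −0.28 and −0.27 without wild-type library 1 or 3) and −0.31 with adult globin counts. Hbb-y, at 0.47, turned to −0.021 with total counts (−0.022 with no filter, −0.0058 with the block, and −0.24 to 0.12 when 1 library was left out, with −0.038 without mutant library 1 and −0.064 without mutant library 3) and −0.029 with adult globin counts. Between TMM and total counts the median of all genes moved as well, from −0.06 to −0.53. Hbq1a lay 0.29 above that median with TMM and 0.23 above it with total counts, and Hbb-y 0.52 and 0.51. The cause of the turns was not tested. The share of Hbb-y differed by −0.117 to 0.0487 CPM when 1 library was left out. The beta-like ratio differed by −0.442 to 0.658 per 1000000 adult beta counts, and by 0.0640 with all adult globins as denominator. The zeta and theta ratio differed by −62.1 to −48.0 per 1000000 adult alpha counts when 1 library was left out. Depth limits the 4 embryonic genes, at most 17 counts each per library.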
